A study of Mus musculus with 30 samples.

Results

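The breakdown of the branched-chain amino acids was followed in mice that lack myotubularin, through 10 genes whose products carry out or control it: Bcat2, Bckdha, Bckdhb, Dbt, Bckdk, Ivd, Mccc1, Mccc2, Hibadh and Auh. They were chosen by symbol, and all 10 were found among the 36103 genes of the count table, each as a single row. Whole gastrocnemius, diaphragm, heart or liver was taken from Mtm1-/y mice, which lack the X-linked gene Mtm1 in all tissues and with it myotubularin, a phosphoinositide phosphatase, and from WT littermates, all males of 5 weeks on a pure 129Pas background. For gastrocnemius and for heart there were 4 libraries of each genotype, for diaphragm 4 WT and 3 Mtm1-/y, and for liver 3 WT and 4 Mtm1-/y. By the study's methods, the numbers of mice in these groups equal the numbers of libraries.

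Leucine, isoleucine and valine are transaminated in mitochondria by the aminotransferase Bcat2, and the resulting ketoacids are decarboxylated by the branched-chain ketoacid dehydrogenase complex. The decarboxylase component of that complex is built from the alpha and beta chains encoded by Bckdha and Bckdhb, and its acyltransferase core is encoded by Dbt. The kinase Bckdk phosphorylates the alpha chain and switches the complex off, and the phosphatase encoded by Ppm1k switches it on again. Ivd, the carboxylase subunits Mccc1 and Mccc2 and the hydratase Auh act in turn on the leucine branch, and Hibadh acts on the valine branch. Skeletal muscle is known as a major site of the transamination step, whereas the liver has little aminotransferase and takes up ketoacids from the blood.

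Total counts ran from 24873817 to 44289343 per library, and 409 to 13302 counts fell on each of the 10 genes in any library. Levels are given as CPM, the count relative to the library total scaled by the TMM factors of all 30 libraries, and differences as log2 fold changes from edgeR with their standard error (SE). A difference was called at an adjusted p under 0.05. Mtm1 itself lay between 15.8 and 26.9 CPM in every WT library and between 3.49 and 8.19 CPM in every Mtm1-/y library. Libraries of each tissue carried that tissue's markers, with Myh4 at 25572 CPM or more in the gastrocnemius, Myh6 at 17848 CPM or more in the heart and Alb at 111280 CPM or more in the liver. The diaphragm libraries did not carry the markers of muscle alone, because 4 of the 7 (WT 1, 2 and 4 and Mtm1-/y 2) held 15524 to 28295 CPM of Alb, the gene of the hepatocyte protein albumin. The other 3 diaphragm libraries held 251, 1449 and 480 CPM of it.

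The stretches before the starts of 5 of the genes are printed so that Bckdhb, Ivd and Mccc2, which fell in the Mtm1-/y gastrocnemius, can be set beside the kinase Bckdk, which fell there too but had another order over tissues, and the aminotransferase Bcat2, which was not called. RefSeq promoters on GRCm38.p6 were at hand for 9 of the 10 genes, all but Dbt, and each sequence below holds 150 bases, read 5′ to 3′ on the gene's strand, that precede the start in both RefSeq and the GENCODE annotation. Capitals mark the letters CCAAT or GGGCGG on either strand, which read ATTGG and CCGCCC on the other.
Bckdhb (chr9:83924987-83925136, plus strand): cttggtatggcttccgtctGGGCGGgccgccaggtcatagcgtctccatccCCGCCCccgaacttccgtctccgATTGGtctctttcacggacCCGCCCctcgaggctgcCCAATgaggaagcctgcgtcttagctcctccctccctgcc
Ivd (chr2:118861804-118861953, plus strand): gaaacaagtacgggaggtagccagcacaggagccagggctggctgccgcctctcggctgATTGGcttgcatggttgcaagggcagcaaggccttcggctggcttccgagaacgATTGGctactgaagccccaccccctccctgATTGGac
Mccc2 (chr13:100015640-100015789, minus strand): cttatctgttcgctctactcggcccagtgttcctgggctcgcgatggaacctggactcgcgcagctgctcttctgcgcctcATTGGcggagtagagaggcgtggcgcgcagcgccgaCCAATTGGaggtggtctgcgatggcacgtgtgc
Bckdk (chr7:127903923-127904072, plus strand): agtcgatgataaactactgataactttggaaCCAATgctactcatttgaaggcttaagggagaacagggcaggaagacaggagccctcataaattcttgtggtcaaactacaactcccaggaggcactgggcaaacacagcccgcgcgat
Bcat2 (chr7:45570003-45570152, plus strand): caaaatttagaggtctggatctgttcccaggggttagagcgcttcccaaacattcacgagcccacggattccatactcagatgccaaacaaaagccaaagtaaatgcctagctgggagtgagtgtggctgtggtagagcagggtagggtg
Bckdhb held 5 such matches, Ivd and Mccc2 held 3 each, of which 2 overlap in Mccc2, and Bckdk held 1. In Bcat2 none of these letters stood in the window. Of the genes not printed, Mccc1, not called in the gastrocnemius, held 4 matches, and Hibadh and Auh, which fell, held 2 each. Bckdha, which fell, held none in a window of 30 bases. The number of matches thus did not part the genes that fell from those not called. Over the 250 bases before the RefSeq start, CCAAT was present in 6 of the 9 genes (Bckdhb, Bckdk, Ivd, Mccc1, Mccc2 and Hibadh) and in 33.8% of all 32851 promoters. GGGCGG was present in 4 of the 9 (Bckdhb, Mccc1, Hibadh and Auh) and in 32.7% of all promoters. TATAAA was found in Bckdk alone of the 9, against 12.4% of all promoters. AAGGTCA, a motif bound by nuclear receptors, was found in none of the 9 and in 4.08% of all promoters. All were searched on both strands, and Bckdha and Bcat2 had neither CCAAT nor GGGCGG. A gene was counted if any of its RefSeq promoters held the letters, whereas the shares are of single promoters. Bckdhb (chr9:83948631-83948780) and Bcat2 (chr7:45571129-45571278) each have a further promoter, not printed, whose 150 bases held none of the letters.

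The WT libraries show how differently the 4 tissues equip themselves for this pathway. The kinase Bckdk fell in a stepwise order from gastrocnemius to diaphragm, heart and liver, while Bckdha, Bckdhb and Dbt, of the dehydrogenase complex it controls, were highest in the liver. Bckdk (chr7:127904082-127910221, plus strand, mm10) lay at 178, 191, 185 and 207 CPM in the 4 WT gastrocnemius libraries, at 96.3, 126, 141 and 110 in the diaphragm, at 75.4, 81.6, 74.3 and 71.0 in the heart, and at 22.9, 21.0 and 19.8 in the liver. No library of a tissue overlapped with the tissues next to it in this order, and the liver was 9.45-fold lower than the gastrocnemius (−3.24 on the log2 scale, SE 0.13, adjusted p = 4.08e-11). Diaphragm was lower than gastrocnemius (−0.72, SE 0.11, adjusted p = 6.69e-05), the heart lower than the diaphragm (−0.65, SE 0.11, adjusted p = 0.000177) and the liver lower than the heart (−1.87, SE 0.12, adjusted p = 6.18e-09).

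**Figure D1:**
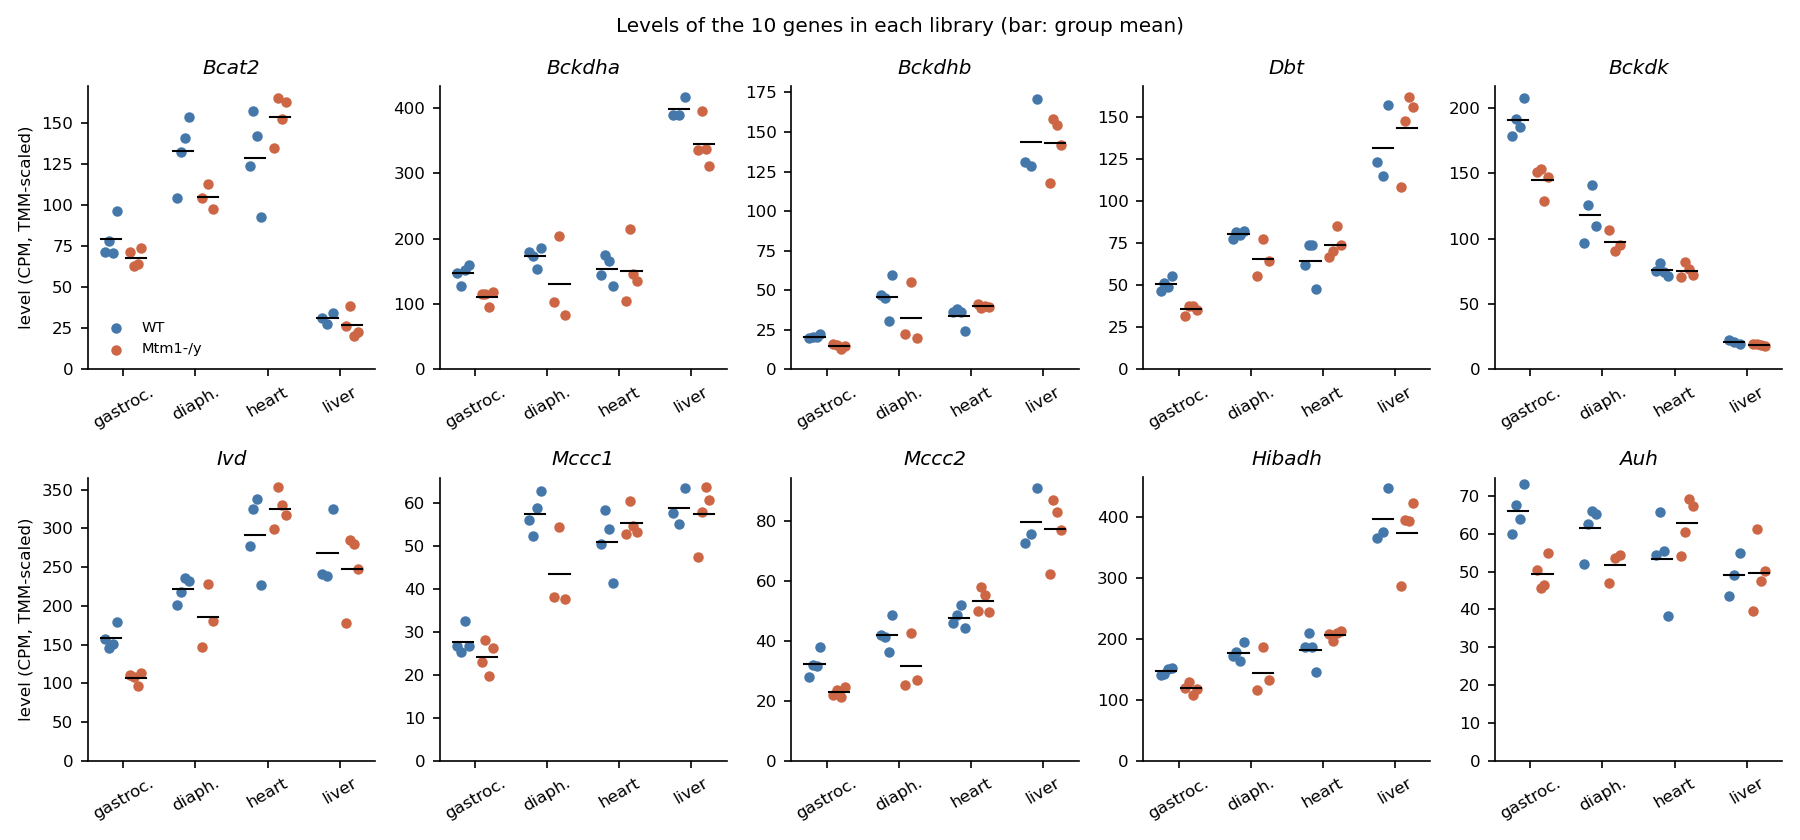
Each panel plots 1 gene in CPM (TMM-scaled, axis from 0) against tissue, with a point per library, blue for WT and orange for Mtm1-/y, and a black bar at the group mean. Bckdk steps down from 190.4 CPM in WT gastrocnemius to 21.2 in WT liver, whereas Bckdha, Bckdhb, Dbt and Hibadh are highest in the liver, and the orange points lie below the blue ones in the gastrocnemius for 8 of the 10 genes.

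The aminotransferase Bcat2 (chr7:45570153-45589711, plus strand) was lowest in the liver, at 31.3, 27.9 and 34.6 CPM in the WT libraries. In WT gastrocnemius it lay at 71.3, 78.2, 71.2 and 96.6 CPM, and in WT heart at 124, 157, 142 and 92.6. Liver was lower than gastrocnemius (−1.42, SE 0.18, adjusted p = 5.52e-06) and the heart lay above it (0.66, SE 0.16, adjusted p = 0.00269), while the diaphragm at 105 to 154 CPM and the heart did not differ beyond their spread (adjusted p = 0.82). Exons of Bcat2 share 622 bases with an antisense RNA, 0610005C13Rik, which reached 133.8 ± 11.7 CPM (SD, n = 3) in WT liver and 0.149 in WT gastrocnemius. Whether the strand was used in counting was not given in the sources used here, so the liver level of Bcat2 carries this uncertainty.

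The alpha and beta chains and the core of the dehydrogenase complex went the other way. Bckdhb (chr9:83925145-84124240, plus strand), the beta chain, rose from 19.7, 20.3, 20.3 and 22.6 CPM in WT gastrocnemius to 131, 128 and 171 in WT liver, a 6.57-fold difference (log2 fold change 2.72, SE 0.20, adjusted p = 2.33e-08). Bckdha (chr7:25629946-25658981, minus strand), the alpha chain, lay at 147, 128, 153 and 160 CPM in WT gastrocnemius and at 389, 389 and 417 in WT liver (1.36, SE 0.12, adjusted p = 1.42e-07). Its levels in the 3 muscles were close, with the heart and the gastrocnemius apart by 0.03 on the log2 scale (adjusted p = 0.864). Dbt (chr3:116513070-116549981, plus strand), the core, lay at 46.7, 51.4, 48.7 and 55.6 CPM in WT gastrocnemius and 123, 115 and 157 in WT liver (1.30, SE 0.14, adjusted p = 8.84e-07). Dld, named after its values were seen, encodes the E3 component that the complex shares with other dehydrogenases, and it was lower in WT liver than in WT gastrocnemius, with means of 192.3 and 426.5 CPM (−1.23, SE 0.16, adjusted p = 5.76e-06). Exons of Bckdha share 1171 bases with B3gnt8 on the other strand, and B3gnt8 itself had a mean of at most 3.93 CPM in any group. As the strand setting was not given, the levels of Bckdha carry the same uncertainty. The low level of B3gnt8 does not settle it. Per kilobase of the principal transcript, where levels of different genes can be compared, WT gastrocnemius held 77.4 CPM of Bckdha and 14.1 of Bckdhb, and WT liver held 209.7 and 97.5.

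The phosphatase Ppm1k was lowest in the tissue where the kinase was highest, a comparison chosen after the values were seen. Ppm1k lay at 19.1, 21.6, 19.1 and 20.1 CPM in WT gastrocnemius, at 54.0 to 64.3 in the diaphragm, at 131 to 175 in the heart and at 112 to 152 in the liver. The heart exceeded the gastrocnemius by 2.84 on the log2 scale (SE 0.12, adjusted p = 2.77e-10), and the heart and the liver did not differ beyond their spread (adjusted p = 0.256). The ratio of the CPM of Bckdk to that of Ppm1k, not corrected for length, was 9.55 ± 0.61 (SD, n = 4) in WT gastrocnemius, 2.04 ± 0.33 (n = 4) in the diaphragm, 0.521 ± 0.065 (n = 4) in the heart and 0.161 ± 0.038 (n = 3) in the liver, and the ranges of the 4 tissues did not overlap.

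**Figure D2:**
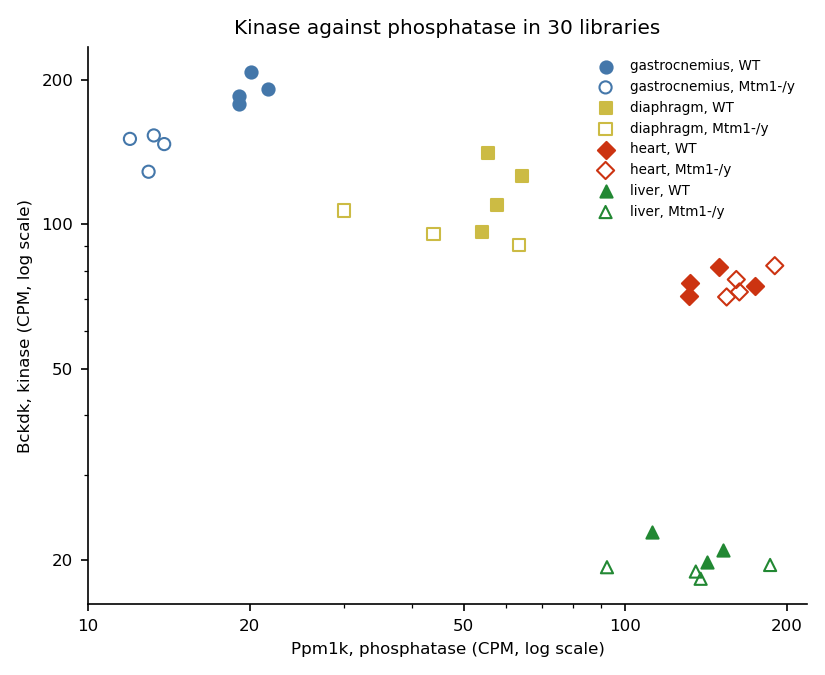
Bckdk (vertical, CPM, log scale) is plotted against Ppm1k (horizontal, CPM, log scale) for the 30 libraries, with a shape and colour per tissue, filled for WT and open for Mtm1-/y. The points run from gastrocnemius at the upper left, where the WT ratio of the levels is 9.55, to liver at the lower right, where it is 0.161.

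The enzymes that follow the dehydrogenase did not share 1 order. Hibadh (chr6:52546228-52640389, minus strand), of the valine branch, and Mccc2 (chr13:99948530-100015639, minus strand), the beta subunit of the carboxylase, were highest in the liver. Hibadh lay at 367, 376 and 448 CPM there against 141, 143, 151 and 153 in WT gastrocnemius (1.36, SE 0.12, adjusted p = 1.58e-07), and Mccc2 at 72.8, 75.7 and 91.1 against 28.1, 32.0, 31.6 and 37.9 (1.23, SE 0.12, adjusted p = 3.76e-07). Mccc1 (chr3:35959312-36000678, minus strand), which bears the biotin, lay at 25.3 to 32.5 CPM in WT gastrocnemius and at 41.3 to 63.6 in every WT library of the other 3 tissues, which did not differ from each other beyond their spread (adjusted p from 0.185 to 0.926). Exons of Mccc1 share 198 bases with the antisense RNA Mccc1os and 94 with Gm15952, so its levels carry the strand uncertainty too. Ivd (chr2:118861954-118882909, plus strand), the dehydrogenase of the leucine branch, was highest in the heart at 277, 324, 338 and 227 CPM, against 158, 146, 151 and 179 in the gastrocnemius (0.84, SE 0.14, adjusted p = 0.00011), and the heart did not differ from the liver beyond the spread (adjusted p = 0.331). Auh (chr13:52835119-52929681, minus strand) varied least, from 66.1 ± 5.58 CPM (SD, n = 4) in WT gastrocnemius to 49.2 ± 5.6 (n = 3) in WT liver (−0.50, SE 0.15, adjusted p = 0.00694), and no neighbours in its order of tissues differed beyond their spread.

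Of the 10 genes, 7 were called higher and 3 lower in WT liver than in WT gastrocnemius, against 37.4% and 42.1% of the 17725 genes tested. Between heart and gastrocnemius 6 were called higher and 2 lower (32.6% and 28.7% of all genes), and between diaphragm and gastrocnemius 6 and 1 (30.6% and 23.8%). Between liver and heart 5 were called higher and 2 lower (35.6% and 40.8%), between liver and diaphragm 5 and 3 (35.5% and 40.6%), and between heart and diaphragm 1 and 2 (22.1% and 29.6%). With most genes called between any of these tissues, the counts among the 10 say little on their own. With library totals alone in place of TMM factors the median of all genes moved from 0.07 to 0.59 for diaphragm against gastrocnemius and from 0.08 to 0.67 for heart against gastrocnemius, and the sign of Auh turned in both. Without the 3 WT diaphragm libraries rich in Alb, the calls between diaphragm and gastrocnemius fell to 4 of 10, Bckdhb among those lost (0.56, SE 0.20, adjusted p = 0.066), and those between heart and diaphragm to 1, Bckdk (−0.92, SE 0.12, adjusted p = 0.000118). These fits hold 1 WT diaphragm library, which was assumed to vary like the other tissues.

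Set beside the tricarboxylic acid cycle, most of the 10 genes went the other way between WT liver and WT gastrocnemius. Bcat2, Bckdk and Auh were lower in the liver, as most genes of the cycle were. Of the cycle's 17 genes, 15 were called lower and 1 higher in WT liver than in WT gastrocnemius, with a median log2 fold change of −0.996, against a median of 1.12 for the 10 genes and −0.10 for all genes. Of 25 other genes of the pathway, 17 were called higher and 6 lower, with a median of 0.65. Over all genes, 37.4% were called higher and 42.1% lower. Oxct1, which lets tissues use ketone bodies, was lower in liver (−6.53 on the log2 scale, SE 0.31, adjusted p = 2.36e-10) than in gastrocnemius.

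In the gastrocnemius, 8 of the 10 genes fell in Mtm1-/y mice, none rose. Hibadh fell by 18.1% and Ivd fell by 31.6%, and the other 6 lay between them. Over all 15456 genes tested, 14.9% were called lower and 14.1% higher. The median log2 fold change of the 10 genes was −0.40, against 0.02 for all genes, and no gene of the 10 passed an absolute log2 fold change of 1. For all 8 genes that fell, every Mtm1-/y library lay below every WT library, which held for 16.8% of all genes. The estimates are relative to the TMM scaling, and with library totals alone 1 of the 10, Ivd, stayed called, as set out below.

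**Figure D3:**
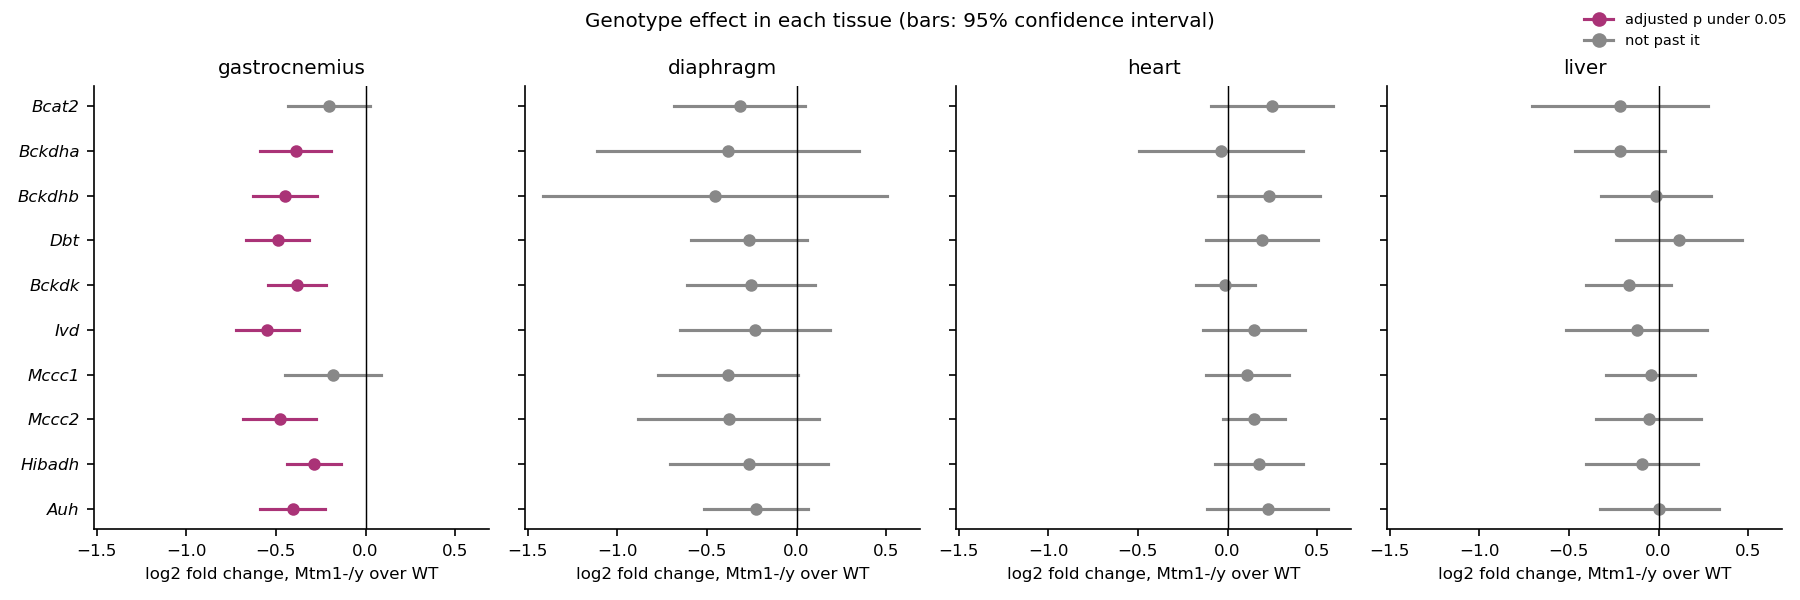
The log2 fold change of Mtm1-/y over WT (horizontal) is drawn for each of the 10 genes in 4 panels, 1 per tissue, with bars for the 95% confidence interval and red-purple marks for an adjusted p under 0.05. In the gastrocnemius 8 genes are marked and all 10 points lie left of 0, in the diaphragm all 10 points lie left of 0 with wide bars, and in heart and liver the bars cross 0.

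Ivd had the largest fall among the 10. It lay at 158, 146, 151 and 179 CPM in the WT gastrocnemius libraries and at 111, 108, 96.1 and 114 in the Mtm1-/y libraries (log2 fold change −0.55, SE 0.08, adjusted p = 0.00105). Dbt lay at 46.7, 51.4, 48.7 and 55.6 CPM in WT and 32.0, 37.8, 37.6 and 35.2 in Mtm1-/y (−0.49, SE 0.08, adjusted p = 0.00175). These groups stood apart by more than the spread within either. The carboxylase subunit Mccc2 lay at 28.1, 32.0, 31.6 and 37.9 CPM in WT and 22.2, 23.8, 21.4 and 24.6 in Mtm1-/y (−0.48, SE 0.09, adjusted p = 0.00404). The beta chain Bckdhb lay at 19.7, 20.3, 20.3 and 22.6 CPM in WT and 16.4, 15.4, 13.2 and 15 in Mtm1-/y (−0.45, SE 0.08, adjusted p = 0.00287). The hydratase Auh lay at 59.9, 67.4, 63.9 and 73.1 CPM in WT and 50.4, 45.7, 46.4 and 54.8 in Mtm1-/y (−0.41, SE 0.08, adjusted p = 0.00509). In none of the 3 did the genotypes overlap.

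The alpha chain, the kinase and the valine enzyme fell by less. Bckdha lay at 147, 128, 153 and 160 CPM in WT and 116, 115, 95.6 and 118 in Mtm1-/y (−0.39, SE 0.09, adjusted p = 0.00937). Bckdk lay at 178, 191, 185 and 207 CPM in WT and 151, 153, 129 and 147 in Mtm1-/y (−0.38, SE 0.07, adjusted p = 0.00378). The kinase fell beside the complex it inhibits, and the ratio of Bckdk to Bckdha was 1.30 ± 0.13 (SD, n = 4) in WT and 1.30 ± 0.048 (n = 4) in Mtm1-/y. The ratio of Bckdk to the phosphatase Ppm1k was 9.55 ± 0.61 (SD, n = 4) in WT and 11.2 ± 1.16 (n = 4) in Mtm1-/y. The genotypes overlapped in it, and the difference was not tested. Hibadh lay at 141, 143, 151 and 153 CPM in WT and 120, 130, 108 and 118 in Mtm1-/y (−0.29, SE 0.07, adjusted p = 0.0107). Bcat2, the aminotransferase, lay at 71.3, 78.2, 71.2 and 96.6 CPM in WT and 71.5, 63.2, 63.9 and 73.8 in Mtm1-/y, and the genotypes overlapped (−0.20, SE 0.10, 95% confidence interval −0.43 to 0.02, adjusted p = 0.159). Mccc1 lay at 26.7, 25.3, 32.5 and 26.7 CPM in WT and 23.0, 28.1, 19.7 and 26.4 in Mtm1-/y, which overlapped too (−0.18, SE 0.12, interval −0.45 to 0.09, adjusted p = 0.28).

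How much of this is a fall depends on what the libraries are scaled to. The TMM factors were 0.855 to 0.932 in the WT and 1.1 to 1.16 in the Mtm1-/y gastrocnemius libraries, and the 10 most abundant genes of a library took 26.5% to 28.6% of its counts in WT and 19.9% to 21.5% in Mtm1-/y. With library totals alone the median of all genes moved to 0.35, Ivd stayed called (−0.21, SE 0.07, adjusted p = 0.0348), the other 7 did not, and the estimates of Bcat2 (0.14), Mccc1 (0.15) and Hibadh (0.05) turned positive. Relative to the median of all genes, the 10 lay between −0.56 and −0.20 under TMM factors and between −0.56 and −0.20 under library totals. A change of scaling moves all genes by nearly the same amount, so these relative values could hardly differ. They do not decide whether the levels themselves fell.

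**Figure D4:**
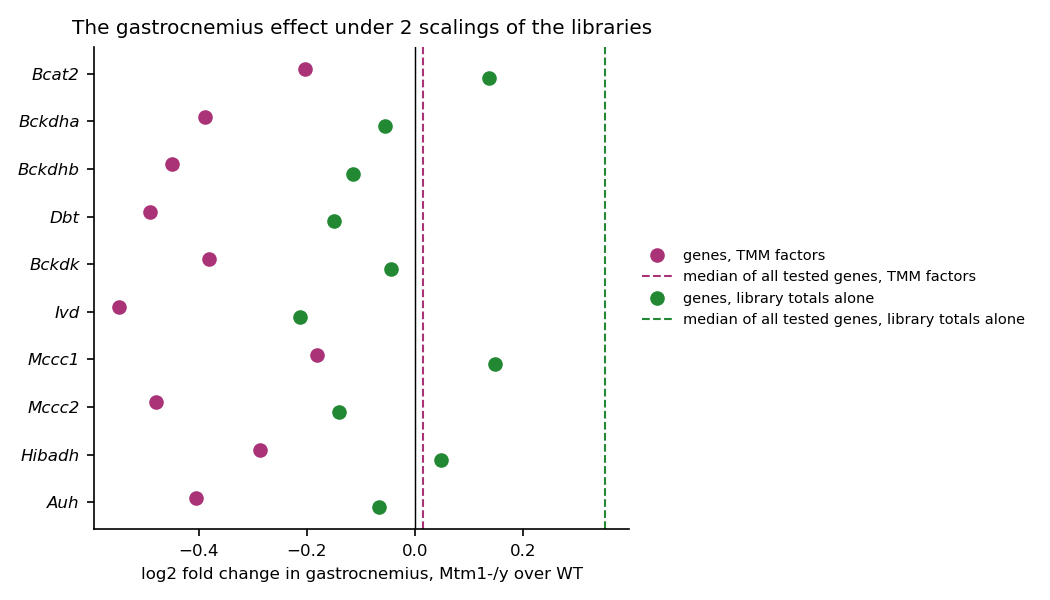
The log2 fold change of Mtm1-/y over WT in the gastrocnemius (horizontal) is plotted for the 10 genes under TMM factors (red-purple) and under library totals alone (green), with a dashed line at the median of all tested genes under each. The 10 points and the median move together, from a median of 0.02 to 0.35, and all 10 genes stay left of the median under both. A change of scaling shifts all genes nearly alike, so this position could hardly change.

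Other steps of the pathway went the same way. Of its 25 other genes, 14 fell in the gastrocnemius and none rose, against 14.9% of all genes called lower and 14.1% higher. The median of the 25 was −0.38, against 0.02 for all genes. All 6 genes from propionate to succinyl-CoA had negative estimates and 5 fell, led by Pcca, the alpha subunit of propionyl-CoA carboxylase (−1.04, SE 0.11, adjusted p = 0.00033), with Mut, the mutase (−0.54, SE 0.08, adjusted p = 0.001), and Pccb, the beta subunit (−0.41, SE 0.06, adjusted p = 0.00152). Of the 7 genes of the isoleucine and valine branches 6 fell, among them Aldh6a1 (−0.54, SE 0.07, adjusted p = 0.000856) and Acadsb (−0.40, SE 0.07, adjusted p = 0.00203). Ppm1k fell as well (−0.60, SE 0.08, adjusted p = 0.000567), from 19.1 to 21.6 CPM in WT to 12.0 to 13.9 in Mtm1-/y. Dld fell too (−0.44, SE 0.08, adjusted p = 0.00346). None of the 5 transporters passed the test, and neither did Bcat1, the cytosolic aminotransferase. With library totals alone 4 of the 25 were called lower and 4 higher, so most of these falls rest on the TMM scaling.

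Genes of other mitochondrial pathways fell as well. Of the 17 genes of the tricarboxylic acid cycle 16 fell, with a median of −0.45, among them Idh3g (−0.58, SE 0.07), Suclg1 (−0.66, SE 0.08) and Idh3a (−0.64, SE 0.08). Of 10 genes of pyruvate dehydrogenase and its regulators 6 fell, with a median of −0.36. Over all genes tested in the gastrocnemius, 14.9% were called lower and 14.1% higher, with a median of 0.02. These falls are relative to the TMM scaling too, and library totals alone moved the median of all genes to 0.35. Counts for these lists with library totals alone are not given here. Several lists of fibre and cell type markers moved with the genotype in the same libraries, and others did not. The summed slow fibre markers overlapped, at 1754 to 5529 CPM in WT and 1312 to 3472 in Mtm1-/y. So did the fibroblast markers, at 1993 to 7496 and 2102 to 9009 CPM. All 7 fast fibre markers fell (median −0.75, summed level 175123 to 211639 CPM in WT and 100512 to 122415 in Mtm1-/y), 6 of 8 white adipocyte markers rose (224 to 345 CPM in WT and 351 to 525 in Mtm1-/y), and all 6 macrophage markers rose (46.2 to 79.1 CPM in WT and 134 to 169 in Mtm1-/y). Of 5 cardiomyocyte markers, Tnnt2 (1.67) and Tnni3 (0.82) rose, Actc1 fell by 2.17 on the log2 scale, Myh6 was not called and Myl7 was at 0 in the Mtm1-/y libraries, and their summed level was 6812 to 7786 CPM in WT and 632 to 2486 in Mtm1-/y. No marker of the fibre, adipocyte and macrophage lists was at 0 in these groups. In whole tissue, fewer cells of a type and less RNA per cell cannot be told apart. With the adipocyte score as a covariate, estimates other than that of Mccc1 (0.06) stayed negative and 4 genes were called (Dbt, Ivd, Mccc2 and Auh), and the part of the fibre, macrophage and cardiomyocyte markers was not tested. The estimates of Bckdhb (−0.49, SE 0.13), Bckdha (−0.44, SE 0.15) and Bckdk (−0.40, SE 0.12), which lost their calls in that fit, were no smaller than without the covariate and had a larger SE, and that of Hibadh was −0.22 (SE 0.11). The score, a mean of log2 CPM, was 2.55 to 3.77 in WT and 3.52 to 4.36 in Mtm1-/y gastrocnemius. Score and genotype can therefore hardly be told apart in that fit.

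In the diaphragm no gene of the 10 was called by edgeR, DESeq2 or limma voom, none had an unadjusted p under 0.05, and edgeR called 0.0119% of 16796 genes and DESeq2 1.41% of 31101. All 10 estimates were negative, from −0.23 for Auh to −0.45 for Bckdhb, where 51.8% of all genes were negative. Their median was −0.29, against −0.01 for all genes, and all 10 were negative with library totals alone as well. As set out below, the 10 genes varied together across libraries, so their signs are not independent. The intervals were wide, as for Bckdhb (−1.41 to 0.51) and Bckdha (−1.11 to 0.35). Bckdhb lay at 46.8, 45.2, 30.3 and 59.6 CPM in WT 1 to 4 and at 22.6, 55.1 and 19.9 in Mtm1-/y 1, 2 and 4. Bckdha lay at 180, 173, 154 and 185 CPM in WT and 103, 204 and 83.0 in Mtm1-/y. In both, Mtm1-/y 2, the library with the most Alb, stood with the WT libraries and apart from the other 2 of its genotype.

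**Figure D5:**
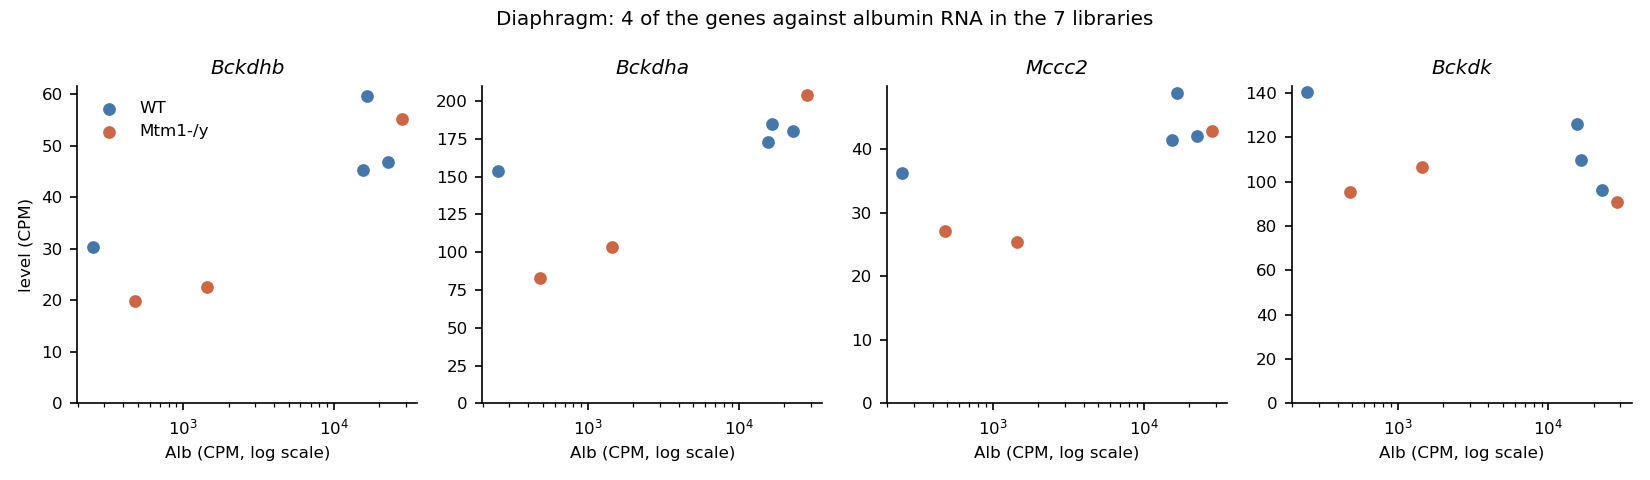
In each of 4 panels the level of a gene in CPM (vertical, from 0) is plotted against Alb in CPM (horizontal, log scale) for the 7 diaphragm libraries, blue for WT and orange for Mtm1-/y. Bckdhb, Bckdha and Mccc2 are high in the 4 libraries with 15524 CPM of Alb or more, while Bckdk is at 90.6 to 126 CPM in those 4 and at 95.2 to 141 in the other 3.

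The 11 hepatocyte markers summed to 496 to 38916 CPM in the WT and 841 to 49443 CPM in the Mtm1-/y diaphragm libraries, none at 0, and liver is where Bckdhb and Bckdha were highest. Among the 3 libraries poor in Alb, the Mtm1-/y mean lay below the lone WT library for the 10 genes. The log2 ratios were −0.38 to −0.72, with no test, and the share of all genes in that order was not counted. In a fit without the 4 libraries rich in Alb, in which that WT library was assumed to vary like the other groups, the estimates ran from −0.36 (Auh) to −0.70 (Bckdha) and none was called. The 5 fibroblast markers summed to 1087 to 2283 CPM in WT and 2306 to 4551 in Mtm1-/y diaphragm without overlap, none of them called, and their part in the result was not tested. With the hepatocyte score as a covariate the SE of Bckdhb went from 0.41 to 0.20, its estimate was −0.38 and none of the 10 was called.

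In the heart none of the 10 was called either, by edgeR, DESeq2 or limma voom, none had an unadjusted p under 0.05, and edgeR called 0.00656% of 15238 genes and DESeq2 0.288% of 29522. Of the estimates 8 were positive and 2 negative, where 49.7% of all genes were positive, and the median was 0.16 against 0.00 for all genes. Bckdhb lay at 36.2, 38.2, 36.3 and 24.5 CPM in WT and at 41.2, 38.6, 39.99 and 39.7 in Mtm1-/y, the only gene of the 10 whose genotypes did not overlap there (0.23, SE 0.13, interval −0.05 to 0.52, adjusted p = 0.552), which held in that direction for 2.15% of all genes. Bcat2 had the largest estimate (0.25, SE 0.15, adjusted p = 0.56), with 124, 157, 142 and 92.6 CPM in WT and 135, 165, 152 and 163 in Mtm1-/y. WT heart 4 was the lowest WT library for all 10 genes, and it also stood apart in the share of its counts on genes of the mitochondrial genome, 11.7% against 16.1% to 17.2% in the other WT and 15.9% to 17.5% in the Mtm1-/y hearts. Without it the estimates ran from −0.11 (Bckdha) to 0.12 (Bcat2), with 0.11 for Bckdhb, and none was called. Bckdk lay at 71.0 to 81.6 CPM in WT and 70.5 to 82.0 in Mtm1-/y (−0.01, interval −0.18 to 0.15). The white adipocyte markers summed to 428 to 552 CPM in WT and 415 to 524 in Mtm1-/y heart, and with their score as a covariate all 10 estimates were negative (−0.06 to −0.48), none called. The score, a mean of log2 CPM, was 3.46 to 4.42 in WT and 2.18 to 2.79 in Mtm1-/y hearts without overlap, so score and genotype cannot be told apart in that fit.

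In the liver none of the 10 was called by edgeR, DESeq2 or limma voom, none had an unadjusted p under 0.05, and 0% of 14305 genes were called by edgeR, with 606 at an unadjusted p under 0.05, and 0.0914% of 27357 by DESeq2. Mtm1 itself was not called by edgeR in the liver (−1.60, SE 0.23, adjusted p = 0.365), so the lack of calls does not show that the 10 were unchanged. Estimates of the 10 ran from −0.22 (Bcat2 and Bckdha) to 0.11 (Dbt). Bckdha lay at 389, 389 and 417 CPM in WT and 335, 395, 337 and 311 in Mtm1-/y (interval −0.47 to 0.04). Bckdk lay at 22.9, 21.0 and 19.8 CPM in WT and 19.3, 19.5, 18.9 and 18.3 in Mtm1-/y, every Mtm1-/y library below every WT library (−0.17, SE 0.10, interval −0.41 to 0.07, adjusted p = 0.969), as in 3.33% of all genes. Klf15, a factor that activates genes of amino acid breakdown, was named after its values were seen. It lay at 293 to 343 CPM in WT and 173 to 217 in Mtm1-/y liver and at 42.6 to 60.0 and 23.5 to 43.3 in heart, and passed the test in neither (adjusted p = 0.505 and 0.546).

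Whether the genotype acted differently in the tissues was tested on the difference itself, in a fit of both tissues. Between heart and gastrocnemius the effect differed for 7 of the 10 genes, all with the larger value in the heart, against 9.94% of 16627 genes called in that direction. These were Ivd (0.71, SE 0.16, adjusted p = 0.00607), Dbt (0.70, SE 0.17, adjusted p = 0.0109), Bckdhb (0.70, SE 0.16, adjusted p = 0.00703), Mccc2 (0.65, SE 0.12, adjusted p = 0.00296), Auh (0.65, SE 0.18, adjusted p = 0.0242), Hibadh (0.48, SE 0.13, adjusted p = 0.0192) and Bckdk (0.39, SE 0.10, adjusted p = 0.0187). Bcat2 (0.47, interval 0.05 to 0.89, adjusted p = 0.102), Bckdha (0.37, adjusted p = 0.285) and Mccc1 (0.31, adjusted p = 0.203) did not pass. With library totals alone edgeR called none of the 10, the median of all genes was −0.44 in place of −0.03, and Bckdha (−0.03), Bckdk (−0.02) and Mccc1 (−0.09) turned negative. With TMM factors but without WT heart 4 the count was 7, with smaller differences such as 0.56 for Bckdhb (SE 0.10, adjusted p = 0.00199). Relative to the median of all genes the 10 lay between 0.34 and 0.75 under TMM factors and between 0.35 and 0.75 under library totals. As in the gastrocnemius, the change of scaling left these relative values little room to differ. Of the other 25 genes of the pathway 14 were called in the same direction, led by Pcca (1.25, SE 0.17, adjusted p = 0.00045).

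Between liver and gastrocnemius 1 of the 10 was called, Dbt (0.63, SE 0.17, adjusted p = 0.0411), against 3.63% of 17179 genes in that direction, and it was lost with library totals alone (0.22, adjusted p = 0.315) and when any of 12 of the 15 libraries was left out. Between diaphragm and gastrocnemius none of the 10 was called by edgeR or DESeq2, none had an unadjusted p under 0.05, and differences ran from −0.21 to 0.30 (0.28% of 17509 genes called in either direction), and between heart and diaphragm none was called by edgeR or DESeq2, 6 had an unadjusted p under 0.05, and they ran from 0.26 to 0.70 (0.00573% of 17466 genes called). The shares of all genes given here count calls after adjustment, so they are no background for the 6 genes under the unadjusted threshold. Between heart and diaphragm, 1798 of the 17466 genes ranked ahead of Hibadh, the last of those 6, by the unadjusted edgeR test. The comparisons share libraries, and so their counts are not independent.

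Across the 30 libraries, the genes followed each other to unlike degrees. Correlations of log2 CPM between the 45 pairs of genes ran from −0.92 to 0.97, with 18 negative. With each tissue's mean taken away, all 45 were positive, from 0.23 to 0.89 with a median of 0.70, over libraries that share their depth and scaling. Differences between the genotypes and between the unlike diaphragm libraries were not taken away and are part of these values. Other pairs of genes were not summarised for comparison. By the same measure, the gene most like Bckdk among 10992 was Dennd4b both before (r = 0.993) and after (r = 0.885) the tissue means were taken away. With means taken away, the gene most like Dbt was Acad8 (r = 0.906), of the valine branch, the gene most like Mccc2 was Aldh4a1 (r = 0.946), the gene most like Hibadh was Echs1 (r = 0.938), and the gene most like Bckdha was Acads (r = 0.911).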

How the data were processed

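RNA-seq was made from whole gastrocnemius, diaphragm, heart and liver (poly-A selected, stranded kit, single reads) of WT and Mtm1-/y mice. The deposited table holds raw counts per gene, made by the authors with STAR 2.5.3a and htseq-count (HTSeq 0.6.1p1) on mm10 with Ensembl 96, per the methods and the submitters' processing notes, which also name bcl2fastq 2.17.1.14 and cutadapt 1.10. The strand setting of the counting was not given in the sources used here. Symbols and coordinates came from GENCODE M21.

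Groups were taken from the labels. Each tissue's genotypes were fitted with edgeR 4.0.16 (quasi-likelihood test, TMM factors, genes with a count minimum of 10 by filterByExpr, R 4.3.3), with p-values adjusted by Benjamini-Hochberg over all genes tested and called under 0.05. WT tissues were compared in a fit of the WT libraries, and the difference between genotype effects in a fit of both tissues. Alternatives used DESeq2 1.42.0, limma 3.58.1 and other scalings, filters, covariates and samples. The fits without diaphragm libraries rich in Alb, and library totals alone for the genotype effects, were chosen after seeing the data. Scripts were tested on simulated data. Other pathway genes were named by the smallest p in a comparison, at most 6, and 3 for other lists, unless said otherwise. The 10 genes and all lists were chosen with earlier results of these data known.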

Additional observations from a re-analysis of the deposited data

Results flagged for a closer look

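In 2 of 60 groups of 4 libraries, 1 library lay far from the other 3 for 1 gene, where chance gives about 1 in 20. These were Mtm1-/y gastrocnemius 3 for Bckdha, at 95.6 CPM with the others at 115 to 118, and WT heart 4 for Bckdhb, at 24.5 CPM with the others at 36.2 to 38.2.

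The genotype effect differed between heart and gastrocnemius by the test of the difference (edgeR, log2 scale, higher in the heart) for Bckdhb (0.70), Dbt (0.70), Bckdk (0.39), Ivd (0.71), Mccc2 (0.65), Hibadh (0.48) and Auh (0.65), and between liver and gastrocnemius for Dbt (0.63). None of these calls was kept with library totals alone.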

How the results depend on the processing

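Counts are of the 10 genes called by edgeR. The 8 calls in the gastrocnemius became 1 with library totals alone and 5 in a fit of all 30 libraries. With an added absolute log2 fold change over 1 they became 0. They became 4 once the score of white adipocyte markers, which nearly parts the genotypes there, was a covariate. In that fit SEs were larger and, for 3 of the 4 lost, estimates were no smaller. The calls stayed 8 when any library was left out. The 7 calls of heart against gastrocnemius effects became 4 with all 30 libraries and 0 with library totals, and the single call of liver against gastrocnemius became 0 with all 30 libraries, without the low count filter and with library totals. Without diaphragm libraries rich in Alb, 7 calls between WT diaphragm and gastrocnemius became 4 and 3 between WT heart and diaphragm became 1, as without the low count filter, with the lone WT diaphragm library assumed to vary like the other tissues. Leaving out a library gave 1 to 4 calls for WT heart against diaphragm (1 without WT diaphragm 2), 0 to 4 for the liver against gastrocnemius effect (4 without Mtm1-/y liver 1, 2 without WT liver 3) and 0 to 3 for heart against diaphragm (3 without Mtm1-/y diaphragm 2).

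Signs turned (log2 scale, the cause was not tested) with library totals in the gastrocnemius for Bcat2 (0.14), Mccc1 (0.15) and Hibadh (0.048), in the liver for Auh (−0.038), for heart against gastrocnemius effects for Bckdha (−0.027), Bckdk (−0.022) and Mccc1 (−0.087), and in WT for Auh in diaphragm (0.39) and heart (0.25) against gastrocnemius, Bcat2 in heart against diaphragm (0.013), Ivd in liver against diaphragm (−0.26) and Mccc1 in liver against heart (−0.38). With the adipocyte score they turned for Mccc1 in gastrocnemius (0.057) and, in heart, for Bcat2 (−0.30), Bckdhb (−0.084), Dbt (−0.42), Ivd (−0.32), Mccc1 (−0.21), Mccc2 (−0.064), Hibadh (−0.11) and Auh (−0.32). Without libraries rich in Alb, Auh in WT diaphragm against gastrocnemius (0.0067) and Bckdhb in heart against diaphragm (0.13) turned, as did Mccc1 in liver against diaphragm with DESeq2 size factors (0.053) and DESeq2 (0.047), and Auh in liver with limma voom (−0.056). Leaving out a library turned the sign of 12 estimates, none of them called in the fit with all libraries. In WT these were Auh in diaphragm against gastrocnemius (−0.18 to 0.0057), Bckdha in heart against gastrocnemius (−0.040 to 0.11), Bcat2 (−0.21 to 0.014) and Hibadh (−0.076 to 0.062) in heart against diaphragm, and Mccc1 in liver against diaphragm (−0.065 to 0.029). Among genotype effects these were Bckdha (−0.26 to 0.10) and Bckdk (−0.052 to 0.023) in heart, and Auh (−0.11 to 0.082), Bckdhb (−0.085 to 0.12), Ivd (−0.20 to 0.030), Mccc1 (−0.089 to 0.020) and Mccc2 (−0.12 to 0.042) in liver.

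Library numbers were not shown to pair samples, since correlations of same-numbered libraries ran from −0.58 to 0.40 and no pair of groups had all of them over 0.1. A fit with the replicate block called 8 genes in the gastrocnemius, 0 in diaphragm, heart and liver, and 7 and 1 for the heart and liver against gastrocnemius effects, lost Hibadh between WT heart and gastrocnemius (8 calls to 7, 0.27, adjusted p = 0.0779) and Dbt between WT heart and diaphragm (3 to 2, −0.34, adjusted p = 0.0561), and turned Bckdhb (0.0073) and Auh (−0.00045) in liver. The limits lie in the 3 or 4 libraries a group, the unlike diaphragm libraries and the scaling.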

Other observations

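The genes most like the chains of the dehydrogenase over the 30 libraries (Pearson r of log2 CPM, as a description over libraries that share depth and scaling) were Phyh for Bckdhb (r = 0.992), Fam193b for Bckdha (r = 0.966) and Acadsb for Dbt (r = 0.966). Esrrb, an orphan nuclear receptor, was most like Bcat2 (r = 0.968), and Nmnat3, a mitochondrial enzyme of NAD synthesis, was most like Auh (r = 0.816).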
